A study of Homo sapiens with 6 samples.

Results

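Of the 13117 genes in an mRNA table of SNU449 cells, 155 had 0 reads in every library made without doxycycline (Cont) and at least 1 read in every library made with it (Dox). SNU449 is an established human hepatocellular carcinoma cell line. All 6 libraries came from SNU449 cells labelled wild type in genotype that carried pInducer20-FOXO1AAA, a construct whose insert is switched on by doxycycline, and the 3 Cont libraries were from cells without the drug. The 3 Dox libraries were from cells given 2 µM doxycycline hydrochloride for 48 h. The labels do not say whether the line was a single clone or whether samples of 1 group were cultured separately, so the spread and the p-values cover these samples and may be technical. No group had doxycycline without the construct, so effects of the drug cannot be told apart from those of the induced protein. The deposited values are log2 FPKM, where FPKM is the number of fragments per kilobase of transcript scaled to a library's mapped reads. The genes were chosen by these values: the 3 Cont values of a gene were identical and the lowest of the 6, and all 3 Dox values were higher. SERPINE3 also met this criterion and is not described here. Because the measured values chose the 155 genes, their difference between Dox and Cont is a description and carries no test. Of all table genes, 40.3% had every Dox library above every Cont library, which the 155 genes do by construction.

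FOXO1 is a forkhead transcription factor that binds DNA with a GTAAACA core and turns on genes of gluconeogenesis, cell cycle arrest, stress resistance and cell death. The kinase AKT phosphorylates it and moves it out of the nucleus, and the name AAA usually denotes a form in which alanines replace the phosphorylated residues, so that it stays nuclear. Many genes of brain, testis, muscle or lymphoid cells are kept off in other cell types through closed chromatin, DNA methylation and the lack of their own activators, and a gene with 0 reads in a tumour line is commonly of that kind. The messenger of G6PC, the catalytic subunit of glucose-6-phosphatase, which releases glucose from liver cells, is a textbook FOXO1 target and 1 of the 155.

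FOXO1 itself was listed at 0.741, 0.776 and 0.889 FPKM in Cont and at 2.87, 3.50 and 2.01 FPKM in Dox, a rise of 1.06 ± 0.15 (SE) on the log2(FPKM + 1) scale (limma, adjusted p = 9.84e-05). Every Dox library lay above every Cont library. Only the Dox libraries reached 1 FPKM, which the test required in at least 3 libraries, so FOXO1 could be called only as higher. Relative depth, read from the step that 1 read makes in the lowest values, ranged from 0.790 to 1.16 in Cont and from 0.872 to 1.31 in Dox around a mean of 1. Mitochondrially encoded genes took up 3.73 ± 0.855% of all FPKM in Cont and 14.1 ± 0.800% in Dox (SD, n = 3), and the part of that difference in the values below was not tested. The hepatocyte list behaved unevenly: fibrinogen genes FGA, FGB and FGG were present in Cont and fell in Dox, while ALB was listed at 0.321 FPKM in Cont and 1.19 FPKM in Dox. In bulk RNA, more cells that express a gene and more RNA per cell cannot be told apart.

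Most of the 155 genes were present at a low level in Dox. Their mean Dox FPKM ran from 0.0698 to 82.8, with a median of 0.493. Only 5 genes reached 10 FPKM, 44 lay between 1 and 10, 106 lay under 1 and 23 of these were under 0.2. The 5 highest held 55.9% of the 376 FPKM that the means add up to, and all 155 together made up 0.0623 ± 0.00160% of all FPKM in Dox (SD, n = 3). A filter of 1 FPKM in at least 3 libraries, used for the tests across all genes, was passed by 41 of the 155, each of them at 1 FPKM or more in every Dox library, and 114 did not pass. Of these, 95 had all 3 Dox values under 1 FPKM.

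**Figure D1:**
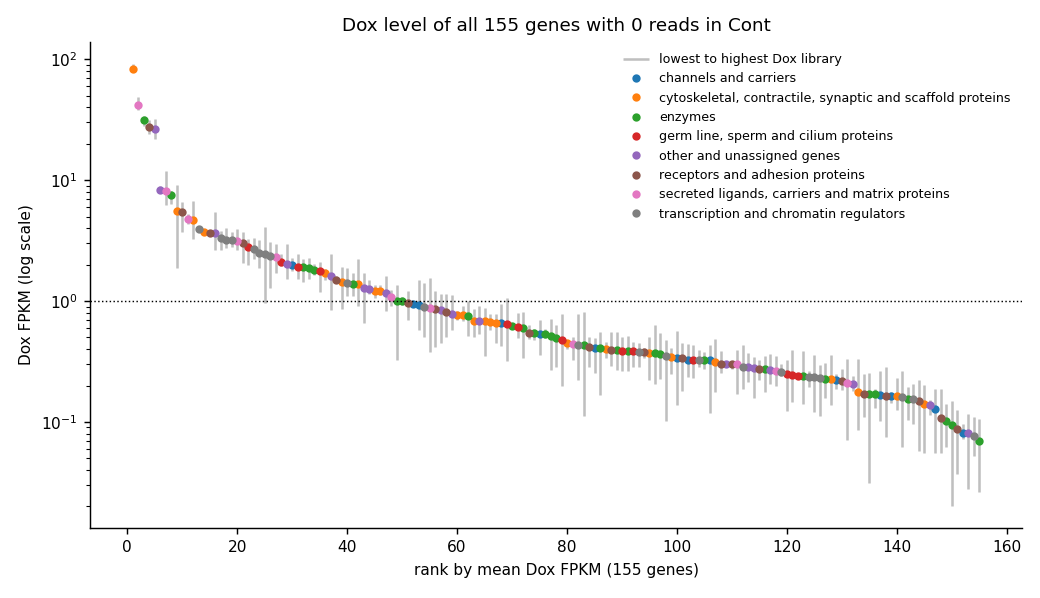
Mean Dox FPKM (log axis) of the 155 genes with 0 Cont reads, ranked from highest to lowest; points are coloured by role, grey lines run from the lowest to the highest of the 3 Dox libraries and the dotted line marks 1 FPKM. 5 genes sit above 10 FPKM and 106 below 1 FPKM, and the grey lines are longer at low levels.

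The plot of all genes by rank shows a steep head of 5 genes and a long gradual tail. Counts of reads behind each level were recovered from the deposited values, which rise above the shared lowest value in whole steps: all 465 Dox values came out whole within 0.05 reads. The sum over the 3 Dox libraries ran from 40 reads (ASPG) to 5221 reads (MOBP), with a median of 129. In 27 genes every Dox library held at least 100 reads, and in 20 genes at least 1 Dox library held fewer than 10. Of the read numbers, 57.0% were even. Against the level that 3 reads would give in each Cont library, 0.00536 to 0.315 FPKM depending on the gene, the Dox means were at least 13.3-fold higher at the median. The lower bound passed 10-fold in 97 genes and 100-fold in 13. These bounds cover counting error only, with every read taken as independent.

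FPKM divides reads by the transcript length the authors' counting used, so a short assumed length raises a gene's rank. The length implied by the read step was within 2% of the longest GENCODE 29 transcript for 57 of the 155 genes, and under 25% of it for 15. For MOBP it was 9.99% of the longest transcript, for SH3GL2 11.0%, for PCARE 8.25% and for LHX9 5.50%. By reads, MOBP still ranked first. VWA3B came second by reads and sixth by FPKM, while SH3GL2 came ninth by FPKM and had rank 63 by reads.

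The highest gene was MOBP, which encodes myelin-associated oligodendrocyte basic protein, a component of the compact myelin sheath. It lies on chromosome 3 at chr3:39467198-39529479 (GRCh38). It was listed at 78.1, 91.6 and 78.8 FPKM in Dox replicates 1 to 3, a mean of 82.8 ± 7.59 (SD, n = 3), from 2085, 1737 and 1399 reads. With 0 reads in all 3 Cont libraries, this was at least 528-fold higher. APOD, at chr3:195568702-195584205, encodes apolipoprotein D, a secreted lipocalin that carries small hydrophobic ligands and is made by glia and many other tissues. Its Dox values were 48.3, 37.8 and 39.7 FPKM, a mean of 41.9 ± 5.62 and at least 406-fold above Cont. In both genes the 3 Dox libraries lay close together, and no single library set the level.

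CHST8, at chr19:33621955-33773509, encodes a Golgi sulfotransferase that adds sulfate to N-acetylgalactosamine on pituitary glycoprotein hormones. It was listed at 31.6, 34.2 and 28.2 FPKM, a mean of 31.3 ± 3.02, at least 366-fold above Cont. TAAR1, at chr6:132644984-132646003, encodes a receptor for trace amines such as tyramine, known from monoamine neurons. It was listed at 26.5, 24.0 and 31.6 FPKM, a mean of 27.4 ± 3.84, at least 355-fold above Cont. SEL1L2, at chr20:13849247-13996443, is a relative of the endoplasmic reticulum degradation factor SEL1L. It was listed at 25.6, 21.8 and 32.0 FPKM, a mean of 26.5 ± 5.17, at least 173-fold above Cont. The order of CHST8, TAAR1 and SEL1L2 is not settled by these libraries, because their Dox values overlap. By FPKM, APOD lies above all 3 of them and MOBP above APOD in every library. An order by FPKM depends on the assumed transcript lengths, and that of MOBP was short.

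Below a gap, the next 7 genes ran from 8.26 to 4.70 FPKM. VWA3B, a gene with a von Willebrand factor A domain, was listed at 8.09, 8.86 and 7.84 FPKM, at least 494-fold above Cont. RBP4, the retinol carrier that liver secretes into plasma, was listed at 6.46, 6.19 and 11.9 FPKM, with Dox replicate 3 apart from the others. HS3ST3B1, a heparan sulfate 3-O-sulfotransferase, was listed at 7.97, 8.19 and 6.34 FPKM, at least 236-fold above Cont. These 3 genes overlap in their Dox values, so their order is not settled either. SH3GL2, the brain endophilin of synaptic vesicle recycling, was listed at 5.69, 9.09 and 1.89 FPKM from 73, 84 and 15 reads, the least even of the 12 highest genes. IL23R, the receptor subunit for interleukin 23 on T cells, was listed at 6.20, 6.59 and 3.71 FPKM. IL36A, an interleukin 1 family cytokine of skin, was listed at 4.81, 5.20 and 4.36 FPKM, and PCARE, a photoreceptor cilium protein, at 6.71, 4.16 and 3.23 FPKM. Dox replicate 3 was the lowest of the Dox libraries in all 4 of SH3GL2, IL23R, IL36A and PCARE and the highest in RBP4.

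**Figure D2:**
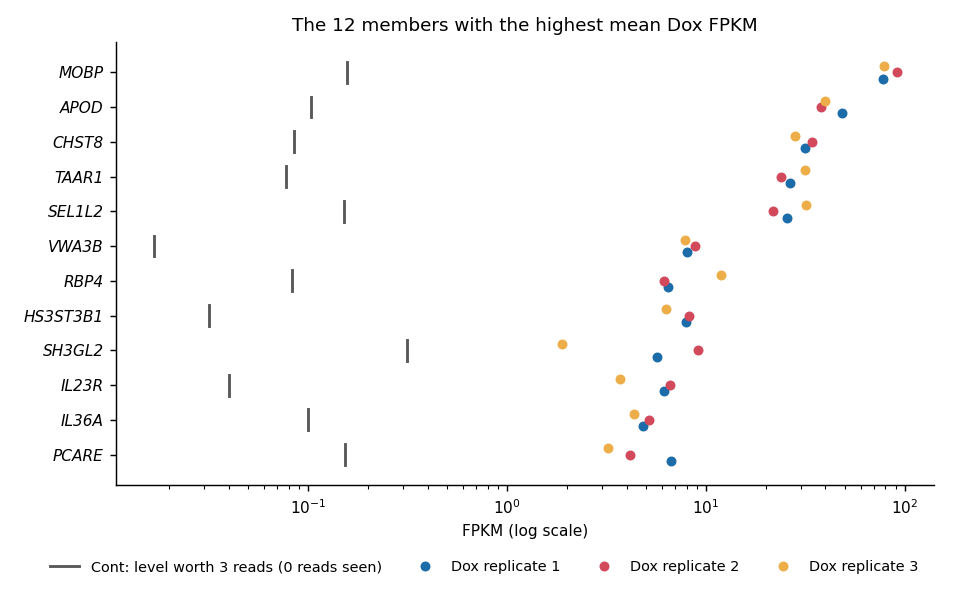
FPKM (log axis) of the 12 genes with the highest mean in Dox; coloured points are the 3 Dox libraries and the grey bar marks the FPKM that 3 reads would give in the Cont libraries, which all had 0 reads. Every Dox point lies to the right of its grey bar, from at least 17.0-fold for SH3GL2 to at least 528-fold for MOBP, and SH3GL2 has the widest set of points.

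The plot of the 12 highest genes sets each Dox library beside the Cont detection level. Sequence before annotated starts is shown next for 2 of the 5 highest genes, for G6PC and for 4 genes whose window holds GTAAACA. A shared switch from silence raises the question of what their start sites share. The sequences are the 250 bases before a RefSeq transcript start (GRCh38.p14), 5′ to 3′ on the gene's strand. Capitals mark GTAAACA (a forkhead core), CAAAACA (the core of the insulin response element) or TATAAA (the TATA box) on either strand. A match on the opposite strand appears as its reverse complement. The windows are chr3:39467430-39467679 for MOBP (plus strand), chr6:132659183-132659432 for TAAR1 (minus strand), chr17:42900549-42900798 for G6PC (plus strand), chr3:186717109-186717358 for KNG1 (plus strand), chrX:18690713-18690962 for PPEF1 (plus strand), chr6:72212643-72212892 for RIMS1 (plus strand) and chr7:14841451-14841700 for DGKB (minus strand).
MOBP: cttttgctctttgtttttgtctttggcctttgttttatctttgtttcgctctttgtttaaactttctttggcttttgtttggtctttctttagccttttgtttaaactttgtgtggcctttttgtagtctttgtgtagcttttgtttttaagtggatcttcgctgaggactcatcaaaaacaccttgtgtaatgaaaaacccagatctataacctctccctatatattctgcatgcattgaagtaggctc
TAAR1: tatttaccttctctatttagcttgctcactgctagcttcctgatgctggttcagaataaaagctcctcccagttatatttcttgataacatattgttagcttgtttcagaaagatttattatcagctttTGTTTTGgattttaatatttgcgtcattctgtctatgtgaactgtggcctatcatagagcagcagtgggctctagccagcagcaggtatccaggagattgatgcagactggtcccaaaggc
G6PC: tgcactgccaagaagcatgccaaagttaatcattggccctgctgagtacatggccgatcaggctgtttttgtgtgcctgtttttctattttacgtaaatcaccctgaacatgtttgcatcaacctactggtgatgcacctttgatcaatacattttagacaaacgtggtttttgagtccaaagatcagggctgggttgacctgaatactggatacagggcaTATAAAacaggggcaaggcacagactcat
KNG1: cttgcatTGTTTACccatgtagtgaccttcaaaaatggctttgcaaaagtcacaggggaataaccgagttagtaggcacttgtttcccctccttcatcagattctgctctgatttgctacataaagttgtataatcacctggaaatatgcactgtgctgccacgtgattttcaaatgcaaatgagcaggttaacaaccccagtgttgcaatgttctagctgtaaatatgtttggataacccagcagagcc
PPEF1: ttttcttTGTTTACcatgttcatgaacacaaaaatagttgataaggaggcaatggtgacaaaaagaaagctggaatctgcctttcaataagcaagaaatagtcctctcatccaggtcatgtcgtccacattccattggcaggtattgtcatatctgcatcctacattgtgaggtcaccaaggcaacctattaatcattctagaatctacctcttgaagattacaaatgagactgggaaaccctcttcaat
RIMS1: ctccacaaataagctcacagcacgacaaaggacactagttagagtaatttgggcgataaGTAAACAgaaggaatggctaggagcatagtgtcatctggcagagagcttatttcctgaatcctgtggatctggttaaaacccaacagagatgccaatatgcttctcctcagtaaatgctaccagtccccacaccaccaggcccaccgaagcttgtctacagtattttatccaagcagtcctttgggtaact
DGKB: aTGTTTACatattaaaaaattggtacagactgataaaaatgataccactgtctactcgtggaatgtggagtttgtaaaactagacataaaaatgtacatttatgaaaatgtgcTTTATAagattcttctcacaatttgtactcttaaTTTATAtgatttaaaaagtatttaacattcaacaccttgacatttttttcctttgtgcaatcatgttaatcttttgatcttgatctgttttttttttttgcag

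The MOBP window holds none of the 3 motifs, TAAR1 holds a CAAAACA on the strand opposite the gene and G6PC a TATAAA close to its start. RefSeq and GENCODE starts differ here: the TAAR1 window lies upstream of the gene span given earlier and the MOBP window inside it. Whether transcription begins at any of the 7 printed starts in these cells was not tested, so a window may not be a promoter in use. RefSeq entries were found for 117 of the 155 genes, with 165 windows in all, and 38 genes, among them APOD, VWA3B and IL23R, had no entry. With both strands searched over 300 bases (250 before to 50 after the start), GTAAACA was in 5 of the 165 windows, 3.03%, against 2.57% of the 15746 windows of all table genes and 3.42% of all 35116 windows. The 5 windows belong to DGKB, PPEF1, KNG1, RIMS1 and LINC01597. CAAAACA was in 12 windows, 7.27%, against 3.54% of table windows and 4.92% of all windows, and TATAAA in 24 windows, 14.5%, against 6.63% and 11.5%. GTAAACA and CAAAACA share the ending AAACA, so their counts are not of unrelated sequences. The windows of the 155 genes were poorer in CpG, with a median of 9 CpG per window against 25 for table genes and 14 for all, and in GC, 56.3% against 64.7% and 58.7%. More than 10 CpG were present in 47.9%, 79.6% and 54.7% of windows. These shares describe letters in fixed windows, and both backgrounds are given because the table's own filter on genes is unknown here.

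Roles, like tissues, were assigned by hand from textbook knowledge after the genes were known, so medians by role depend on that assignment. The 11 secreted ligands, carriers and matrix proteins had a median mean Dox FPKM of 1.08, against 0.493 over all 155 genes, and 6 of them reached 1 FPKM. After APOD, RBP4 and IL36A came C1QTNF4, a C1q family protein of brain, at 3.93, 2.87 and 2.64 FPKM, and ESM1, an endothelial proteoglycan, at 2.26, 1.71 and 2.98 FPKM. PRL, the pituitary hormone prolactin, was listed at 0.917, 1.23 and 1.10 FPKM, and its receptor PRLR at 3.53, 3.77 and 3.68 FPKM. A ligand and its receptor were thus both at 0 reads in Cont and present in all Dox libraries, PRL from 36, 35 and 29 reads. KNG1, the liver kininogen that releases bradykinin, was uneven at 0.376, 1.54 and 0.705 FPKM. The growth factors BMP2 and FGF19 (an intestinal hormone that lowers bile acid synthesis), the matrix protein ASPN and the secreted SCUBE1 lay between 0.211 and 0.441 FPKM on average.

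Receptors and adhesion proteins numbered 22, with a median of 0.388 FPKM. After TAAR1, IL23R and PRLR came HTR7, a serotonin receptor coupled to cyclic AMP, at 3.29, 3.75 and 2.08 FPKM, and DSG1, the desmosomal cadherin of upper epidermis, at 1.45, 1.45 and 1.61 FPKM. In DSG1 the 3 Dox libraries lay close to each other, and in HTR7 Dox replicate 3 was the lowest. Receptors of lymphoid and myeloid cells formed the largest block: KLRC1, P2RY14, TRGC1, IL1RL1, TRAT1, CCR4, CMKLR1, CRTAM, SPN and STAB1 had mean Dox levels from 0.107 FPKM for STAB1, a scavenger receptor, to 0.963 FPKM for KLRC1, a natural killer receptor. KLRC1 and the T cell receptor segment TRGC1 have near-identical copies, so their read assignment is uncertain. The adhesion receptors ADGRB1 and ADGRD1 share a family. ADGRB1 was listed at 0.223, 0.277 and 0.326 FPKM and ADGRD1 at 0.0977, 0.0374 and 0.125 FPKM, so that every ADGRB1 library lay above every ADGRD1 library. PDGFRA, a growth factor receptor of mesenchymal and glial precursor cells, was listed at 1.21, 0.419 and 0.938 FPKM, and NRXN2, NPHS1, OR2A12 and IGSF22 lay at 0.148 to 0.216 FPKM on average.

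Of 22 transcription and chromatin regulators, 9 reached 1 FPKM. LIM homeobox genes, which pattern neurons and limbs, appeared 3 times. LHX9 was listed at 2.64, 3.80 and 3.53 FPKM, LHX5 at 2.46, 3.19 and 1.88 FPKM and LMX1B at 0.188, 0.436 and 0.232 FPKM. By FPKM, LHX9 and LHX5 overlapped, and LMX1B lay below both in every library. The place of LHX9 beside the others depends on the short transcript length assumed for it. Other regulators at 1 FPKM or more included RAI2, EGR4, GATA3 and OVOL2. RAI2 was listed at 2.82, 3.75 and 2.99 FPKM, and EGR4, an immediate early zinc finger factor, at 3.30, 2.50 and 2.24 FPKM. GATA3, which directs helper T cell and luminal epithelial fates, was uneven at 0.954, 4.11 and 2.33 FPKM, with Dox replicate 2 the highest. Further regulators, VGLL3, NKX2-2, PRDM7, EYA4, INSM2, LMX1B, CECR2, BCL11B, BHMG1, HOXA7, ZNF541 and RORB, had means from 0.0768 FPKM for RORB, listed at 0.110, 0.0682 and 0.0524 FPKM, to 0.885 FPKM for VGLL3. RORB is an orphan nuclear receptor of retina and cortex and 1 of the 4 genes with the lowest Dox means.

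Enzymes were the largest role group, with 31 genes and a median of 0.429 FPKM. G6PC was listed at 2.08, 2.24 and 1.45 FPKM from 94, 72 and 43 reads, a mean of 1.92 ± 0.418 (SD, n = 3), at least 20.7-fold above Cont. It was the only gene of the 155 on a list of 50 FOXO target genes, of which 39 were in the table. DGKB, a diacylglycerol kinase of brain, was listed at 1.63, 1.78 and 2.04 FPKM, ALLC, an allantoicase relative of testis, at 2.29, 1.51 and 1.79 FPKM, and PPEF1, a calcium-binding phosphatase of sensory cells, at 1.69, 1.11 and 1.35 FPKM. In these 3 genes the highest Dox library was under 2 times the lowest. ST8SIA1, the sialyltransferase that makes ganglioside GD3, differed more, at 1.36, 0.326 and 1.34 FPKM from 26, 3 and 17 reads. Among heparan sulfate enzymes, HS6ST3 had the lowest mean of all 155 genes, 0.0698 FPKM, at 0.0778, 0.0263 and 0.105 FPKM, far under its relative HS3ST3B1. The ectonucleotide pyrophosphatase genes ENPP3, a basophil surface enzyme, and ENPP2, which makes lysophosphatidic acid, were listed at 0.713, 1.01 and 0.514 FPKM and at 0.267, 0.553 and 0.353 FPKM. These ranges overlapped. CYP39A1, a liver oxysterol hydroxylase of bile acid synthesis, was listed at 0.965, 1.08 and 0.928 FPKM. The fatty acid oxidation genes ACADL and ACOXL, both acyl-CoA enzymes, had means of 0.226 and 0.170 FPKM, ACOXL from 26, 1 and 20 reads. ACP3, TMPRSS11E, FOLH1, INPP5D, PNPLA1, CPVL, TKTL2, ASTL, STK31, ADAMTS5, CAPN3, HFM1, CERS3, SPTSSB, GALNT3, RNF150 and ASPG had means from 0.0950 FPKM for ASPG to 0.617 FPKM for ACP3.

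The 24 cytoskeletal, contractile, synaptic and scaffold genes had a median of 0.684 FPKM, and 9 reached 1 FPKM. SGCB, the beta subunit of the sarcoglycan complex that links muscle membrane to the matrix, was listed at 3.89, 3.62 and 3.57 FPKM, at least 176-fold above Cont. SNTG1, a brain syntrophin, was listed at 1.78, 1.83 and 1.49 FPKM, and FSD2, a muscle protein, at 1.06, 1.36 and 1.23 FPKM. Both kept their Dox libraries close together. CASQ1, the calcium buffer of skeletal muscle stores, was listed at 1.92, 1.52 and 0.862 FPKM, and ACTN2, the alpha-actinin of the muscle Z line, at 0.969, 0.915 and 2.23 FPKM, with opposite libraries at the top. COBL, an actin nucleator, had a mean of 1.21 FPKM. Synaptic and neuronal genes here were GNAO1, RIMS1, PCP4L1, NYAP2, PLCL1, RTN1, SPHKAP and KLHL1, from 0.140 FPKM for KLHL1 to 0.768 FPKM for GNAO1, the alpha subunit of a brain G protein, and RIMS1, an active zone scaffold. HCLS1, SMPX, STAC2, MRVI1, SHROOM2, SEPTIN14 and ARHGEF6 lay between 0.165 and 0.690 FPKM.

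Channels and carriers were low: 1 of 14, the connexin GJD4 of muscle precursors at 1.76, 2.28 and 1.89 FPKM, reached 1 FPKM, and the median was 0.333. ABCG8, the sterol exporter of liver and gut, was the most even, at 0.946, 0.934 and 0.964 FPKM. The TRP channels were MCOLN2, a lysosomal channel of immune cells, at 0.694, 1.50 and 0.574 FPKM, TRPM1, the channel of retinal ON bipolar cells, at 0.189, 0.230 and 0.251 FPKM, and TRPC6, a podocyte and smooth muscle channel, at 0.102, 0.133 and 0.263 FPKM. MCOLN2 lay above TRPM1 and TRPC6 in every library, and those 2 genes overlapped. Voltage-gated sodium channel subunits were SCN3B at 0.443, 0.235 and 0.308 FPKM and SCN2A at 0.0743, 0.0726 and 0.0966 FPKM, the latter among the 4 lowest genes. RYR2, the cardiac calcium release channel, was low by FPKM at 0.174, 0.176 and 0.144 but rested on 133, 96 and 73 reads over a long transcript. KCND2, SLC26A7, SLC12A1, SLC30A10, SLCO2A1 and GRIK2 had means from 0.127 FPKM for the glutamate receptor GRIK2 to 0.658 FPKM for the potassium channel KCND2.

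The 13 germ line, sperm and cilium genes had a median of 0.473 FPKM and none had under 10 reads in a Dox library. CCDC54 was listed at 3.13, 1.99 and 3.24 FPKM, FAM166A at 2.43, 1.93 and 1.96 FPKM and ODF3, of the sperm tail outer dense fibre, at 2.01, 2.09 and 1.19 FPKM. ADAD2 had a mean of 1.92 FPKM. The meiotic gene TEX11, needed for chromosome synapsis, was listed at 0.298, 0.324 and 0.124 FPKM, and TDRD1, a tudor protein of the piRNA pathway that silences transposons, at 0.227, 0.241 and 0.256 FPKM. TDRD1 was even and TEX11 was not, with Dox replicate 3 the lowest. CCDC42, PIH1D3, MAGEC2, KIAA1210, ZSWIM2, RSPH6A and DCAF8L1 had means of 0.244 to 0.644 FPKM.

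The remaining 18 genes have other or no known roles here. After SEL1L2 and VWA3B came CCDC175 at 3.65, GCSAML at 2.02, SMIM31 at 1.61, LCE4A (a late cornified envelope gene) at 1.29, KIAA1324L at 1.26 and RBM11 (an RNA-binding splicing protein of brain) at 1.16 FPKM on average. The golgin copies GOLGA8S and GOLGA6A were listed at 0.291, 0.287 and 0.321 FPKM and at 0.338, 0.347 and 0.158 FPKM, and belong to a family of near-identical copies, so that their reads are uncertain. The same holds for FOLH1, PRDM7, LCE4A, MAGEC2 and OR2A12. SAMD5 was among the 4 lowest, at 0.116, 0.0277 and 0.0996 FPKM from 32, 4 and 18 reads. ZCCHC12, AC005622.1, AL445238.1, LINC01597, LRRC31, ANKRD22 and GBP5 lay between 0.139 and 0.838 FPKM. By annotation, 152 of the 155 genes are protein-coding, LINC01597 is a long intergenic RNA, TRGC1 a T cell receptor segment and AC005622.1 a transcribed pseudogene.

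By the tissue in which each gene is best known, assigned by hand from textbook knowledge after the genes were known and without an expression atlas, 29 genes were of brain and nerve, 22 of testis and germ line, 21 of immune cells and blood, 8 of striated muscle and heart, 7 of skin and stratified epithelium, 6 of liver, 4 of retina and 3 of kidney. A further 37 are known from several or other tissues and 18 were not assigned. Median Dox levels were 0.768 FPKM for brain and nerve, 0.387 for testis and germ line, 0.493 for immune and blood, 1.29 for striated muscle and heart, 1.29 for skin and 0.969 for liver. The groups overlapped across most of their range, and 12 of the 29 brain and nerve genes reached 1 FPKM against 3 of the 21 immune genes. The 6 liver genes were RBP4, G6PC, CYP39A1, ABCG8, KNG1 and SLC30A10.

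**Figure D3:**
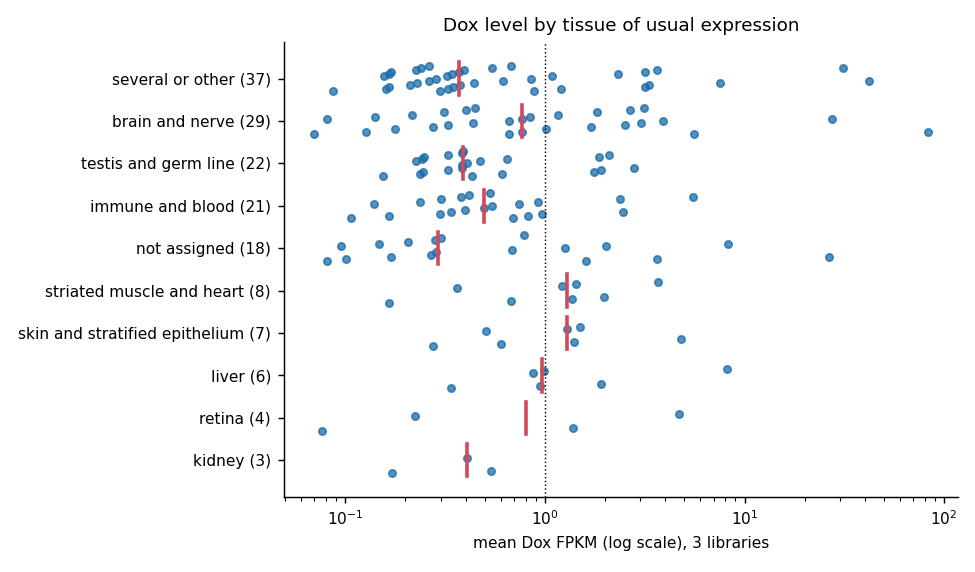
Mean Dox FPKM (log axis, 3 libraries) of the 155 genes by tissue of usual expression, with the number of genes in brackets; each point is 1 gene, the red bar is the group's median and the dotted line marks 1 FPKM. All groups spread over an overlapping range, and the highest points, MOBP, APOD and CHST8, belong to brain and nerve and to genes of several or other tissues.

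The plot by tissue shows each gene as a point. Markers of the same tissues were taken from fixed lists. No neuron, striated muscle, leukocyte, endothelial or photoreceptor marker on the lists was among the 155. Only 8, 10, 5, 4 and 4 markers of these lists were in the table at all. With 155 of 13117 table genes chosen, an absence among so few is not a result about these cell types. MOBP was the member of the oligodendrocyte and myelin list, and all 5 other tested genes of that list fell in Dox, with a median log2 change of -0.81 against -0.06 over all tested genes (limma, adjusted p under 0.05): MBP by -0.49, CNP by -1.07, PLLP by -0.81, PMP22 by -0.57 and MYRF by -1.06. On a TPM scale (FPKM rescaled to 1 total per library) without mitochondrially encoded genes, the fall of PMP22 missed the threshold (-0.34, limma adjusted p = 0.0913). In the background of this comparison, 37.6% of the 11526 tested genes were higher in Dox and 42.8% lower. APOD was the member of the astrocyte list, on which 3 of 5 other tested genes rose, ALDH1L1 by 2.85, CLU by 3.04 and GFAP by 0.77, with GJA1 and APOE not past the threshold. GJA1 passed as higher under 3 of the 4 other scalings, and APOE under all 4, with the replicate block (0.27, limma adjusted p = 0.00933) and without Cont replicate 3 (0.39, limma adjusted p = 0.0339). TEX11 and TDRD1 were the members of the testis and germ cell list, on which 1 of 4 other tested genes rose (PXT1) and 2 fell (ODF2 and DMC1). In the leukocyte list 2 genes were tested, CD14 and CORO1A, and neither passed, at 0.08 for each, although CORO1A passed as higher without Dox replicate 3 (0.30, limma adjusted p = 0.0229). The neuron list had 3 genes higher (SYT1, MAP2 and SLC17A7) and 1 lower (SYP) of 5. The fall of SYP missed the threshold without Cont replicate 2, Cont replicate 3 or Dox replicate 3 (limma adjusted p = 0.0563, 0.0943 and 0.0850) and under 2 scalings besides the one below (TPM and median of ratios, 0.0654 and 0.0731). The striated muscle list had 2 higher (MYH3 and TNNC2) and 3 lower of 5, the endothelial list 1 tested gene, CALCRL, higher by 6.30, and the photoreceptor list 1 higher and 1 lower. Without mitochondrially encoded genes in the TPM scale, the falls of SYP, ODF2 and TNNT1 also missed the threshold (limma adjusted p = 0.212, 0.0667 and 0.0667). MAP2, ALDH1L1, GFAP, PXT1 and TNNC2 passed the filter through the Dox libraries alone, so they could be counted only as higher. TNNT2 passed through Cont alone and could be counted only as lower. With any 1 Dox library left out, 2 neuron, 1 astrocyte, 0 testis and 1 striated muscle gene remained higher. Whether another cell type contributes RNA was not tested beyond these lists.

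G6PC stood among FOXO target genes that moved mostly upward. Of the 36 other tested genes of that list, 30 rose, 4 fell (BNIP3, GADD45A, GADD45B and TXNIP) and CDKN1A and DDIT4 did not pass, with a median log2 change of 1.32 against -0.06 over all tested genes. IGFBP1, SESN3, KLF2 and FBXO32 passed the filter through the Dox libraries alone, so they could be counted only as higher. With any 1 Dox library left out, 26 genes of the list were higher. Under quantile normalization 28 were higher, and KLF4 and FOXO4 missed the threshold (limma adjusted p = 0.0549 and 0.770). The other scalings gave 30 or 31. Over all tested genes, 37.6% were higher and 42.8% lower. The 4 falls depended on scaling, and none of them passed with mitochondrially encoded genes left out. The falls of GADD45A and TXNIP also missed the threshold without Cont replicate 1, Dox replicate 2 or Dox replicate 3 (limma adjusted p of 0.143, 0.0876 and 0.0849 for GADD45A and 0.0827, 0.0776 and 0.0802 for TXNIP), and that of TXNIP without Cont replicate 2 (0.143). CDKN1A passed as lower without Dox replicate 2 (-0.25, limma adjusted p = 0.0208) and DDIT4 as higher without Cont replicate 3 (0.39, limma adjusted p = 0.0410). On the hepatocyte list, which also holds G6PC, FGA, FGB and FGG fell, CPS1 did not pass, and the median of the 4 was -1.67. CPS1 passed as higher under TPM, TPM without mitochondrially encoded genes and median-of-ratios scaling (limma adjusted p = 0.0190, 0.00115 and 0.0131). FGA passed the filter through Cont alone and could be counted only as lower. Without the filter, 2 other genes of the hepatocyte list were called higher.

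Listed relatives of several of the 155 genes were tested, in families chosen after the values were seen. Relatives that were abundant in Cont fell in several families. ACTN1 fell from 200 ± 4.87 to 58.9 ± 4.02 FPKM and ACTN4 from 946 ± 23.3 to 354 ± 24.3 FPKM beside ACTN2 (limma, adjusted p = 1.29e-08 and 6.12e-08). SH3GL1, the ubiquitous endophilin beside SH3GL2, fell from 40.8 ± 4.49 to 17.2 ± 1.35 FPKM. DSG2, the desmoglein of simple epithelia beside DSG1, fell from 67.5 ± 1.11 to 35.2 ± 1.77 FPKM, and CERS2, the main ceramide synthase of liver beside CERS3, fell from 112 ± 5.08 to 42.9 ± 4.16 FPKM. Of the 5 tested ceramide synthases 3 fell and none rose, beside 42.8% of all tested genes lower and 37.6% higher. CERS1, among the 3, passed the filter through Cont alone and could be counted only as lower. CERS4, however, was past the threshold as higher under all 4 other scalings and without Cont replicate 2 (0.30, limma adjusted p = 0.0151). Smaller falls were measured for ACADVL beside ACADL, from 88.3 ± 3.85 to 59.6 ± 3.68 FPKM, for G6PC3, the tested relative of G6PC, from 60.0 ± 6.32 to 44.3 ± 2.28 FPKM, and for ENPP1 beside ENPP2 and ENPP3, from 34.1 ± 3.88 to 24.1 ± 1.44 FPKM. The falls of G6PC3 and ENPP1 missed the threshold (limma adjusted p = 0.0956 and 0.0790) once mitochondrially encoded genes were left out of the TPM scale. Each relative named here as lower still stood above its silent-gene relative in Dox.

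In other families at least 1 relative rose. SGCE, a sarcoglycan, rose from 103 ± 7.64 to 264 ± 7.13 FPKM beside SGCB, while SGCD did not pass (0.01, limma adjusted p = 0.983). SEL1L rose from 20.8 ± 1.19 to 71.2 ± 0.776 FPKM beside SEL1L2. The heparan sulfate relatives of HS6ST3 and HS3ST3B1 were mixed: HS6ST1 rose from 97.6 ± 2.24 to 166 ± 7.15 FPKM, HS3ST1 fell from 2.56 ± 0.980 to 0.492 ± 0.140 FPKM and HS2ST1 fell from 67.6 ± 1.93 to 57.5 ± 0.294 FPKM (limma, adjusted p = 1.95e-06, 0.000295 and 0.00568). HS3ST1 passed the filter through Cont alone and could be counted only as lower. The fall of HS2ST1 missed the threshold under all 4 other scalings, and on the TPM scale without mitochondrially encoded genes its sign was reversed (0.05). EGR1 and EGR2, immediate early zinc finger factors, rose by 3.27 and 3.95 on the log2(FPKM + 1) scale beside EGR4. EGR2 passed the filter through the Dox libraries alone and could be counted only as higher. TRP channels rose in 7 of 8 tested relatives and none fell, beside 37.6% of all tested genes higher and 42.8% lower. TRPC1 rose by 2.01 and MCOLN3 by 1.71. TRPV4, among the 7, passed the filter through Dox alone and could be counted only as higher. TRPM7, which did not pass, was past the threshold in the same direction under all 4 other scalings. Of 3 tested sodium channel relatives 2 rose, SCN9A by 2.06 and SCN8A by 1.07, and 1 fell. The LIM homeobox relatives were mixed, ISL2 up by 2.67, LHX4 up by 0.90 and LHX2 down, from 28.5 ± 0.582 to 10.6 ± 3.51 FPKM. LHX4 also passed the filter through Dox alone and could be counted only as higher. Apart from HS2ST1, the relatives named as higher or lower kept their direction in every alternative setting in which they were tested.

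Levels in the 3 Dox libraries differed more for the 155 genes than for other genes. The median coefficient of variation was 30.6% (21.3% for genes at 1 FPKM or more and 36.1% below it), against 8.03% over all tested genes, which are mostly more abundant. Counting error alone, 1 over the root of the mean reads, has a median of 15.2% for the same genes. That value takes every read as independent. Of the read numbers, 57.0% were even, and counting error would be larger if reads were counted in pairs, which was not tested. In 62 genes the highest Dox library was more than 2 times the lowest and in 13 more than 4 times. The highest of the 3 libraries was Dox replicate 2 in 68 genes (43.9%, against 29.7% of tested genes), replicate 1 in 44 and replicate 3 in 43. The lowest was replicate 3 in 68 genes (43.9%, against 37.2%). What Dox replicate 2 shares with these genes was not tested.

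**Figure D4:**
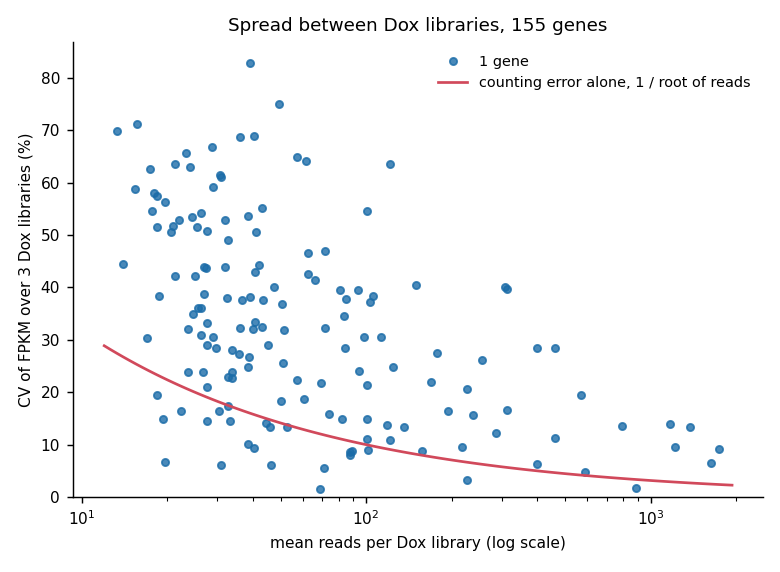
Coefficient of variation of FPKM over the 3 Dox libraries (percent) against mean reads per Dox library (log axis) for the 155 genes; each point is 1 gene and the red line is the counting error of 1 over the root of the reads. Most points lie above the line, and the spread narrows with more reads.

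The plot of spread against reads shows that genes above the counting line occur at every depth. With 0 reads in each Cont library, the inside edge of the rule lies at the genes with fewest Dox reads: ACOXL with 26, 1 and 20, ASPG with 2, 22 and 16 and ST8SIA1 with 26, 3 and 17. Just outside it, 124 genes had reads in exactly 1 Cont library and in all Dox libraries. Of the 3 highest of these by Dox mean, CRTAC1, a cartilage matrix protein, had 0, 2 and 0 Cont reads and 541, 532 and 278 FPKM in Dox, and PXT1, a testis gene, had 0, 0 and 2 Cont reads and 34.7, 33.9 and 35.1 FPKM. By Dox mean, CRTAC1 lay above MOBP and PXT1 between APOD and CHST8, so a few reads in a single Cont library decide on which side of the rule a gene falls. The mirror pattern, 0 reads in all Dox libraries and reads in all Cont libraries, was shown by 7 genes: IL4I1, FGF1, TNNT2, LRTM1, AQP5, FOXI1 and CCDC168, with mean Cont levels from 0.0294 FPKM for CCDC168 to 1.68 FPKM for TNNT2, a cardiac troponin.

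The 155 genes were spread over the genome. Chromosome 2 held 17 (11.0%, against 6.94% of table genes), chromosome 3 held 14 and chromosome X 13 (8.4%, against 3.48%). The median gene span was 50.7 kb against 33.5 kb for table genes. Only 2 pairs lay within 100 kb of each other, RTN1 with CCDC175 (19145 bases apart) and RSPH6A with BHMG1 (31176 bases apart). ACTN2 and RYR2, both of cardiac muscle, lay 277574 bases apart, and 11 pairs lay within 1 Mb. Whether counting used the strand is not stated, and 28 of the 155 genes overlap another protein-coding gene in the annotation, so reads of the overlapping genes cannot be told apart.

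The values of other listed genes that lie near the 155 were not used by the rule, though reads of overlapping genes may be shared. Within 100 kb there were 296 such genes beside 114 of the 155, and 261 were tested. Of these 124 were higher in Dox (47.5%), 89 lower (34.1%) and 48 neither, with a median log2 change of 0.21. Over all 11446 tested genes with coordinates that are not among the 155, 37.3% were higher, 43.0% lower and the median was -0.07 (limma, adjusted p under 0.05). Within 50 kb the share higher was 52.1% of 142 genes and within 500 kb it was 40.7% of 929. Leaving out genes that overlap one of the 155 gave 48.0% higher and 33.3% lower. No test of these shares was made, because neighbouring genes are not independent.

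**Figure D5:**
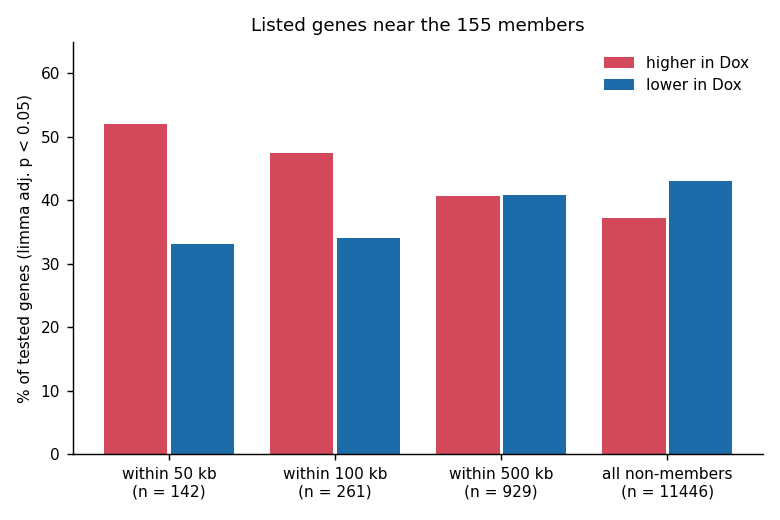
Percent of tested genes higher (red) and lower (blue) in Dox (limma, adjusted p under 0.05) within 50, 100 and 500 kb of the 155 genes and among all other tested genes with coordinates; n is the number of genes and the axis starts at 0. The share higher is 52.1%, 47.5%, 40.7% and 37.3% from left to right.

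The plot of neighbours by distance shows that the share higher is nearer that of all genes at 500 kb. For the 12 highest genes, neighbours went both ways. Beside IL23R, SLC35D1 rose from 4.76 ± 0.426 to 66.4 ± 8.82 FPKM (log2 change 3.54, limma adjusted p = 3.09e-09), and beside SH3GL2, CNTLN rose by 0.95 (limma adjusted p = 4.43e-06). TMEM131 beside VWA3B, CLIP4 beside PCARE and COX10 beside HS3ST3B1 rose by 0.67, 0.59 and 0.31. Beside RBP4, CEP55, a cell division gene, fell from 103 ± 3.04 to 18.9 ± 4.36 FPKM, and beside MOBP, the ribosomal protein gene RPSA fell from 982 ± 57.7 to 534 ± 16.4 FPKM. KCTD15 beside CHST8 and MACROD2, which overlaps SEL1L2 on the opposite strand, fell by 1.13 and 0.79. SLC25A38 beside MOBP, PPP1R2 beside APOD, NDUFAF5 and ESF1 beside SEL1L2 and FRA10AC1 beside RBP4 did not pass the threshold, and all 5 passed as higher on the TPM scale without mitochondrially encoded genes. The genes VNN1 and VNN2 beside TAAR1 were too low to test, at 0.168 and 0.109 FPKM in Cont and 0.827 and 0.408 FPKM in Dox.

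Further neighbours were chosen after their values were seen. BCL2L11, which encodes the cell death protein BIM and is a FOXO target, lies 1156 bases from ACOXL on the same strand and rose from 25.5 ± 3.15 to 198 ± 7.75 FPKM. SLC25A27, a mitochondrial carrier, lies 85 bases from CYP39A1 on the opposite strand and rose from 0.0432 ± 0.0161 to 6.72 ± 0.746 FPKM. TMEM86A overlaps IGSF22 on the opposite strand and rose from 1.01 ± 0.171 to 23.1 ± 1.26 FPKM. In each of these pairs the gene silent in Cont had the lower level in Dox. FBXL20, near STAC2, rose by 3.73 (limma, adjusted p = 2.50e-09). CCND1, the cyclin D1 gene near FGF19, fell from 117 ± 7.59 to 17.3 ± 1.65 FPKM.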

How the data were processed

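The authors deposited 1 table of log2 FPKM values for 13117 genes in 6 poly(A) libraries (3 Cont, 3 Dox). Per the submitters' processing notes, FastQC 0.11.7 and the build GRCh38 were used; the aligner, counter, annotation and strand setting are not given in the sources used here. The design had assumed linear FPKM, so linear FPKM was recovered by raising 2 to each deposited log2 value. Reads were recovered from the whole steps above the shared lowest value (offset 2.00 reads on average). In the labels, Cont1 is described with the column name Cont2, so columns were matched by title.

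Values of log2(FPKM + 1) were tested with limma 3.58.1 (R 4.3.3, mean-variance trend, two-sided), and p-values were adjusted by Benjamini-Hochberg over the 11526 genes at 1 FPKM or more in at least 3 libraries; 0.05 was the threshold. A gene that passed this filter through the Dox libraries alone could be called only as higher, and through Cont alone only as lower. The test was checked on simulated data. Log2 changes are Dox minus Cont and understate changes of low genes. Lower bounds were set against 3 reads per Cont library. Coordinates are from GENCODE 29 and promoter windows from RefSeq. The members, lists and families were chosen with earlier results of these data known. The rule named all members by role, with library values for the 12 highest, the 4 lowest, those on a list and those that share a family with another member; further library values were picked after they were seen. Some genes the rule would name are not reported here. Outside the members, the 3 highest genes just outside the rule, neighbours of the 12 highest and relatives within the chosen families were named by rule, and other neighbours after their values were seen. Alternatives covered pseudocounts, filters, 4 other scalings (TPM, TPM without mitochondrially encoded genes, median of ratios, quantile), leaving out each library, the replicate block, windows and member criteria.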

Additional observations from a re-analysis of the deposited data

How the results depend on the processing

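The number of genes that met the rule was 279 where 2 of 3 Cont libraries at the lowest value were enough, 41 where 1 FPKM was required in all Dox libraries, 135 with at least 10 reads in every Dox library (an alternative chosen after seeing the data) and 157 where 2 of 3 Dox libraries were enough. Leaving out 1 library gave 155 to 204. The median Dox level of 0.493 FPKM was 0.817 on a TPM scale, 0.950 on that scale without mitochondrially encoded genes, 0.514 with median-of-ratios scaling and 0.338 with quantile normalization, and 0.487 to 0.505 with 1 Dox library left out. Neighbours higher in Dox numbered 74 within 50 kb and 378 within 500 kb, against 124 within 100 kb. They numbered 101 to 123 with 1 library left out, 94 with a filter at 5 FPKM and 161 on the TPM scale without mitochondrially encoded genes. In every limma setting run, their share higher, 41.6% to 58.5%, was above that of the other genes in the same setting, 32.7% to 48.0%.

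Calls over all genes numbered 9265, and 8319 to 9118 with 1 library left out. Of the calls, 46.7% were higher in Dox, and 60.2% were with mitochondrially encoded genes left out of a TPM scale, which moved the median of all genes from -0.06 to 0.22 on the log2 scale. With the replicate number as a block, 9272 genes were called, with 124 neighbours higher and 84 lower. Same-numbered samples did not deviate together (correlations 0.04, -0.00 and 0.08). Whether they were cultured or prepared together is not known. The 3.03% of windows with GTAAACA was the same over the 250 bases before the start alone. Depth limits the 20 genes with under 10 reads in a Dox library, whose order is not resolved.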
